A study of Mus musculus with 8 samples.

Results

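The extracellular metalloproteases named ADAM, ADAMTS and MMP, together with their TIMP inhibitors, were followed in sorted dendritic cells of 4 mice, taken from marrow and from spleen. Genes were chosen by symbol alone: every gene called Adam, Adamts, Mmp or Timp followed by a number was taken, except Adam10, Adam23, Mmp8 and Mmp9, which the rule left out. This gave 74 of the 19938 genes measured, made up of 32 Adam, 18 Adamts, 20 Mmp and 4 Timp genes, and no filter on low values was applied to them. Each mouse gave 1 bone marrow sample labelled as myeloid dendritic cells and 1 spleen sample labelled as classical dendritic cells, so there were 2 groups of 4 Affymetrix mogene 1.0 ST arrays. The source label of the marrow samples calls them myeloid cells, a wider term. All 8 samples came from mice aged 8 weeks with the genotype CX3CR1-gfp/+, the marrow being taken from femur and tibia, and in this genotype a reporter gene occupies 1 copy of the fractalkine receptor gene. The labels do not say which surface markers defined the sort or whether the reporter entered it.

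All 3 protease families hold a zinc ion in the active site and are made as inactive precursors. ADAMs are mostly anchored in the membrane, where the catalytic ones cut, or shed, the outer part of other surface proteins such as cytokines and their receptors. ADAMTS proteases are secreted and act on proteoglycans, procollagens and von Willebrand factor. MMPs cut collagens, elastin and other matrix proteins, and TIMPs block MMPs and some of the ADAMs and ADAMTS proteases. Dendritic cells and macrophages use these enzymes to move through tissue and to set the amount of receptors and ligands on their surface.

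Values are the deposited linear intensities, and levels are geometric means of 4 arrays (n = 4 per group throughout). Array medians lay between 125 and 135. Since each array holds the RNA of a sorted population, fewer cells of a type and less RNA per cell cannot be told apart. The labels were set against marker lists. The summed intensity of 13 classical dendritic cell markers ran from 41045 to 44695 in bone marrow, against 49181 to 50822 in spleen. The sums rest largely on H2-Ab1 (15354 in bone marrow, 14678 in spleen) and Cd74 (12955 and 12578), neither of which passed the test. Of the 13, 7 were lower in bone marrow and none higher, and 6 were lower by at least 2-fold. The largest fall was that of Xcr1, 11.2-fold, while Clec9a, Irf8, Irf4 and Batf3 of the same list did not pass. Markers of other cells also differed: 13 of 13 neutrophil markers, 7 of 9 monocyte markers and 10 of 12 macrophage markers were higher in bone marrow and none was lower. Summed neutrophil markers ran from 23758 to 31812 in bone marrow, against 2200 to 2574 in spleen, and summed macrophage markers from 25921 to 36410 against 6135 to 6965. Summed monocyte markers ran from 25114 to 29320 in bone marrow, against 9829 to 12045 in spleen. Of 14 stromal and endothelial markers, 3 were higher and 1 lower, with sums of 2513 to 2700 against 2615 to 2710. Bone marrow had more of the basophil, mast cell and eosinophil markers (7 of 10 higher, none lower) and erythroid markers (5 of 6 higher, none lower), and spleen more of the B cell markers (4 of 8 lower, 2 higher) and T and NK cell markers (5 of 9 lower, none higher). Of 6 plasmacytoid dendritic cell markers 3 were lower and 1 higher, and of 5 platelet markers 1 was higher and none lower. What part these populations play in the results below was not tested.

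The bone marrow samples carried more transcript of the inhibitor Timp2, the membrane collagenase Mmp14 and the sheddase Adam15 than the spleen samples. They carried less of Adam11, Adam19, Mmp12, Adam8 and Adam22, and each of these 8 genes differed by at least 2-fold. The membrane sheddases Adam17 and Adam9 and the membrane-type protease Mmp25 rose by smaller amounts. Among the 74, 7 rose and 7 fell in bone marrow relative to spleen at a limma adjusted p of 0.05, that is 18.9%, against 18.5% of all 19938 genes. The share of changed genes was therefore close to the background of this comparison when genes of every intensity are counted. Of the 74 genes, 8 (10.8%) passed with at least a 2-fold difference, against 3.52% of all genes, and no test of this share was run. The 2 groups of arrays did not overlap in 15 of the 74 (20.3%), against 20.6% of all genes: bone marrow lay above spleen in 8 (10.4% of all genes) and below it in 7 (10.2% of all genes). The 15th gene, beside the 14 that passed, was Adam32, a dim gene with an adjusted p of 0.31. The median log2 fold change, bone marrow minus spleen, was 0.01 for the 74 genes and -0.01 for all genes. The rising genes were 9.26% and the falling genes 9.2% of all genes.

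**Figure D1:**
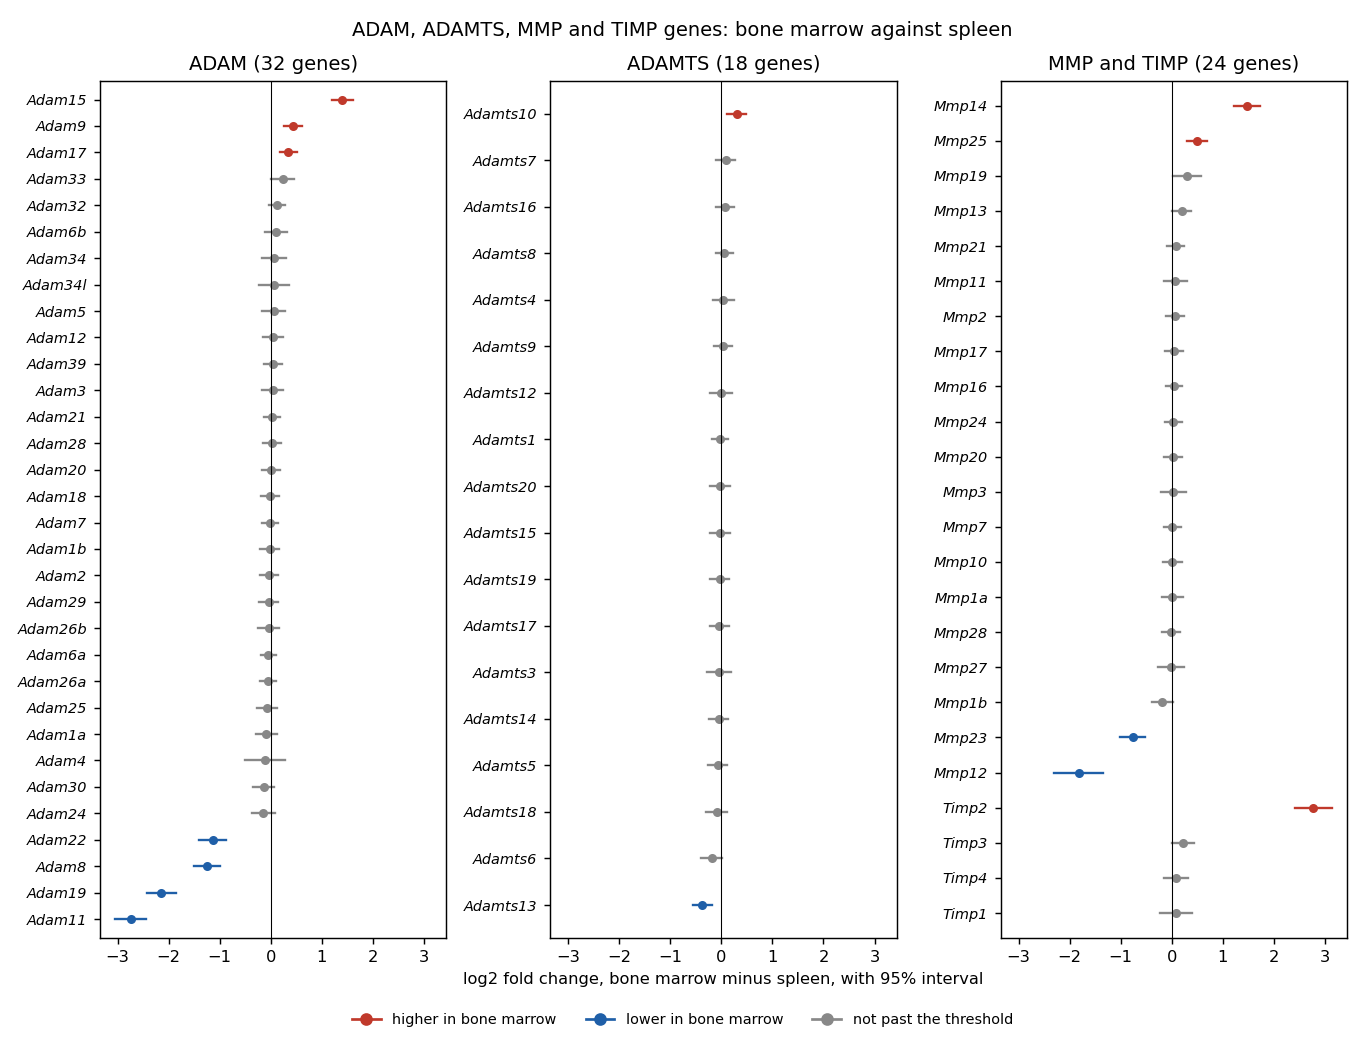
Each point is the log2 fold change of a gene (bone marrow minus spleen, horizontal axis), with its 95% interval from limma as a line, for the 32 Adam, 18 Adamts, 20 Mmp and 4 Timp genes. Red marks the 7 genes higher and blue the 7 lower in bone marrow at an adjusted p of 0.05; the other 60 lie within 0.30 of 0.

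No detection call comes with the intensities. As a guide to dim values, 1015 olfactory receptor genes, which serve in the sensory neurons of the nose, had a median intensity of 28.1 and a 95th percentile of 96.2. Of the 74 genes, 44 had a mean at or below that percentile and 30 (40.5%) lay above it, against 62.9% of all genes. The 14 genes that passed the test were all among the 30. That is 46.7% of the 30, against 26.9% of all genes above the line, and no test of this share was run. Probe sets differ in how brightly they report a transcript, so this is a rough guide only. A difference in a gene near this level is compressed toward 0.

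**Figure D2:**
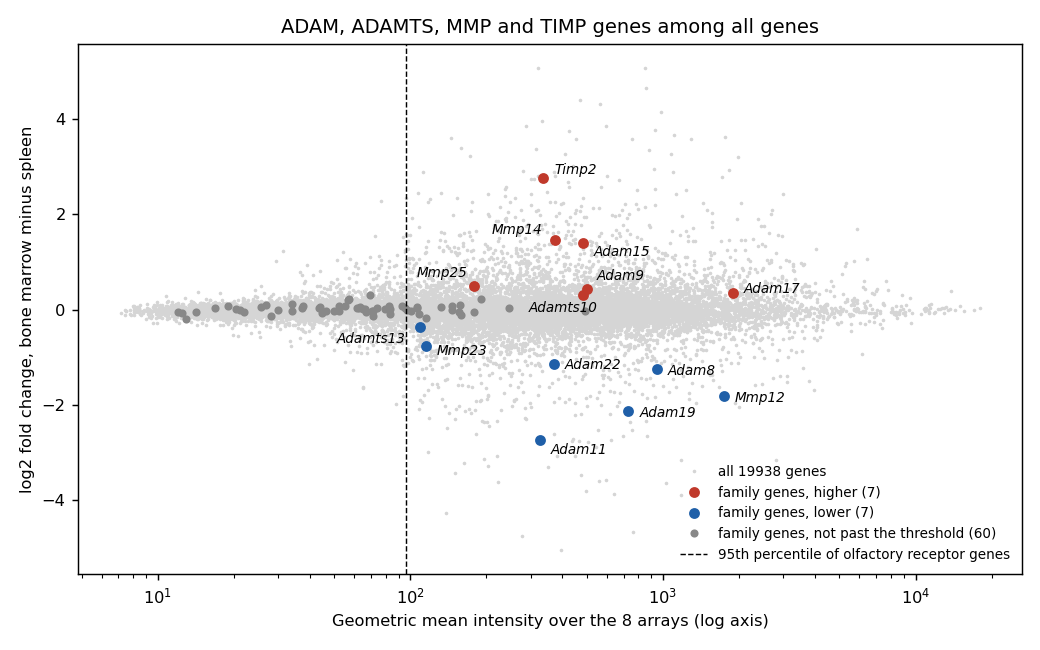
Each point is a gene, placed by its geometric mean intensity over the 8 arrays (horizontal, log axis) and its log2 fold change (vertical, bone marrow minus spleen); grey dots are all 19938 genes and larger dots the 74 family genes. The dashed line at an intensity of 96.2 is the 95th percentile of 1015 olfactory receptor genes, and the 14 coloured genes lie to its right.

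Of the 4 inhibitors, 1 was higher in bone marrow and none lower (25%, against 18.5% of all genes). Timp2, which blocks MMPs and also takes part in the activation of pro-MMP2 at the cell surface, stood at 892, 1256, 873 and 607 in bone marrow replicates 1 to 4 and at 128, 122, 133 and 131 in spleen replicates 1 to 4. The groups were far apart, and bone marrow replicate 2 was the highest and replicate 4 the lowest of its group. Timp2 was 6.84-fold higher in bone marrow (2.77 ± 0.16 SE in log2 units, limma adjusted p = 9.9e-08). The summed macrophage markers of bone marrow replicates 1 to 4 were 27281, 36410, 31852 and 25921, so replicate 2 was the highest and replicate 4 the lowest there too, and their part in the Timp2 values was not tested. The other 3 TIMP genes did not pass. Timp3, an inhibitor bound to the matrix, stood at 69.1, 57.9, 65.7 and 54.7 in bone marrow and at 58.0, 53.7, 53.4 and 47.5 in spleen (0.22 ± 0.10, adjusted p = 0.17, 95% interval 0.01 to 0.42). Timp1, the inducible inhibitor, stood at 63.8, 48.9, 55.0 and 48.9 against 58.3, 60.7, 37.6 and 51.0 (95% interval of the log2 difference -0.23 to 0.39). Timp4 stood at 60.7, 55.0, 65.7 and 48.2 against 54.2, 58.2, 47.5 and 56.1 (-0.15 to 0.31). The arrays of the 2 tissues overlapped for Timp1, Timp3 and Timp4, all of which lay below the olfactory receptor percentile.

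Of 5 membrane-type MMPs with a value, 2 were higher and none lower in bone marrow (40%, against 18.5% of all genes, not tested). Of the 5, 4 lay above the olfactory receptor percentile, where 26.9% of all genes passed. Mmp14, the membrane collagenase that activates pro-MMP2 in a complex with TIMP2, stood at 503, 730, 637 and 635 in bone marrow and at 237, 191, 221 and 253 in spleen. The lowest bone marrow array lay well above the highest spleen array. Mmp14 was 2.77-fold higher (1.47 ± 0.12 SE in log2 units, limma adjusted p = 1.5e-06). Mmp25, a protease held on the membrane by a lipid anchor and known from neutrophils, stood at 208, 210, 225 and 207 against 174, 150, 149 and 133. The groups did not overlap, and the difference was 1.41-fold (0.50 ± 0.09, adjusted p = 0.0013). All 13 neutrophil markers rose in these arrays too, and their part in the Mmp25 difference was not tested. Mmp17 stood at 108 (bone marrow) and 104 (spleen) (95% interval of the log2 difference -0.13 to 0.23) and Mmp24 at 107 and 105 (-0.13 to 0.19). Mmp2, the gelatinase whose precursor MMP14 and TIMP2 handle, stood at 147, 139, 164 and 148 in bone marrow and at 152, 138, 135 and 147 in spleen. Its arrays overlapped, and its log2 difference was 0.06 ± 0.08 (95% interval -0.11 to 0.24).

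**Figure D3:**
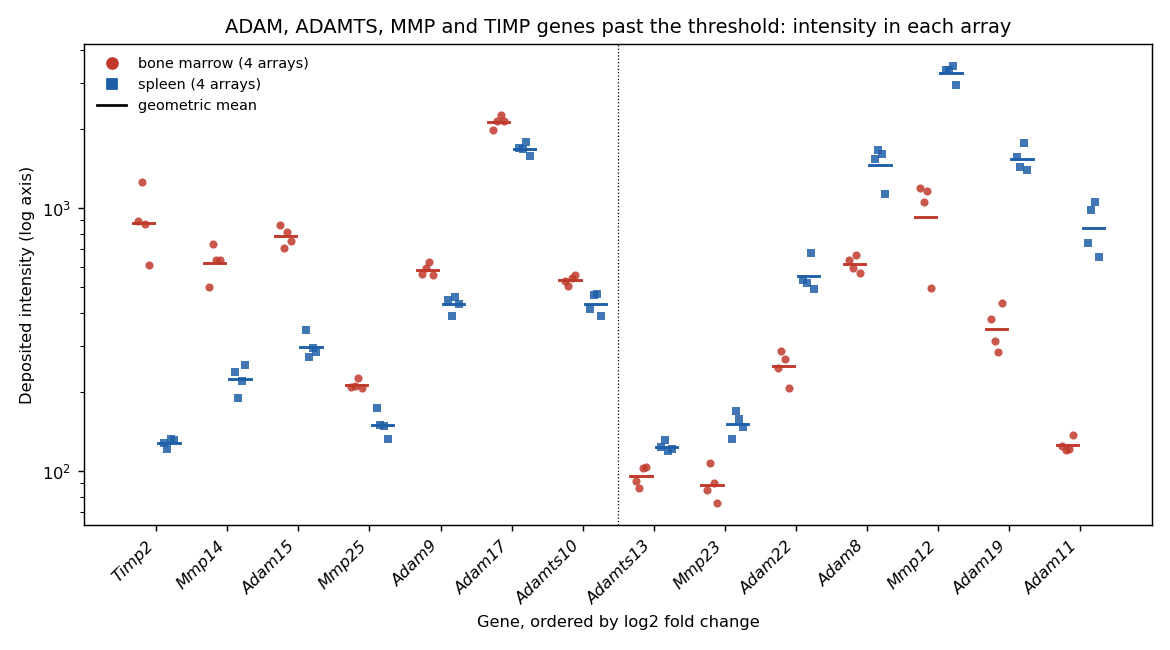
Deposited intensity (vertical, log axis) of the 14 family genes past the threshold in each of the 4 bone marrow arrays (red circles) and 4 spleen arrays (blue squares), with a bar at the geometric mean of each group. Genes run from Timp2 (6.84-fold higher in bone marrow) to Adam11 (6.70-fold lower), the groups do not overlap in any of them, and bone marrow replicate 4 stands apart for Mmp12 at 499.

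The membrane sheddases split. Of 8 genes, 3 were higher, 2 lower and 3 did not pass, so that 62.5% passed, against 18.5% of all genes. Of the 8, 6 lay above the olfactory receptor percentile, where 26.9% of all genes passed. The difference in share was not tested. Adam15, a membrane sheddase, stood at 866, 709, 813 and 753 in bone marrow and at 344, 271, 294 and 283 in spleen. Every bone marrow array lay above every spleen array, and the difference was 2.64-fold (1.40 ± 0.10 SE in log2 units, limma adjusted p = 3.4e-07). Adam9 stood at 563, 592, 626 and 560 against 448, 389, 462 and 434. It was 1.35-fold higher (0.44 ± 0.08, adjusted p = 0.0018). Adam17, the enzyme that releases TNF and sheds its receptors, stood at 1995, 2142, 2266 and 2148 against 1690, 1680, 1788 and 1584. The rise was only 1.27-fold, but the groups did not overlap (0.34 ± 0.08, adjusted p = 0.0060).

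Adam19 and Adam8 went the other way. Adam19, a sheddase of neuregulin and other growth factors, stood at 379, 312, 284 and 436 in bone marrow and at 1569, 1432, 1776 and 1394 in spleen. The highest bone marrow array was far below the lowest spleen array, a 4.41-fold difference (-2.14 ± 0.13 SE in log2 units, limma adjusted p = 1.1e-07). Adam8, a sheddase of leukocytes, stood at 638, 591, 662 and 569 against 1538, 1666, 1605 and 1130. It was 2.39-fold lower in bone marrow (-1.26 ± 0.12, adjusted p = 5.1e-06), with spleen replicate 4 the lowest spleen array. Neutrophils are known to make Adam8 too, and the part of the neutrophil markers in its values was not tested. Adam33 stood at 207 (bone marrow) and 177 (spleen) (95% interval of the log2 difference 0.01 to 0.45, adjusted p = 0.17), and Adam28 at 66.6 and 65.9 (-0.16 to 0.19).

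Some ADAMs are known mainly from the brain, lack a working catalytic site and serve in adhesion. The 2 of them among the 74 genes were lower in bone marrow, and Adam23 was left out by the rule. Adam11 stood at 124, 121, 121 and 138 in bone marrow and at 736, 983, 1061 and 655 in spleen. Bone marrow arrays lay just above the olfactory receptor percentile, and the 6.70-fold difference was the largest fall of the 74 genes (-2.74 ± 0.14 SE in log2 units, limma adjusted p = 2.1e-08). Adam22, a receptor for the secreted protein LGI1 at synapses, stood at 248, 288, 268 and 207 against 533, 520, 677 and 491. It was 2.20-fold lower (-1.14 ± 0.12, adjusted p = 1.7e-05). The 21 ADAMs of testis and epididymis, many of which act in fertilization, gave no call, with log2 fold changes between -0.14 and 0.13. Only 2 of the 21, Adam4 and Adam1a, had a mean above the olfactory receptor percentile. Adam4 stood at 153 (bone marrow) and 166 (spleen) (95% interval of the log2 difference -0.52 to 0.28) and Adam1a at 105 and 112 (-0.29 to 0.12). Several of these genes are near-identical copies, so their probe sets may report each other's transcripts. Adam34l had no role listed and did not pass either (0.06 ± 0.14).

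Of 15 secreted MMPs, 2 were lower and none higher in bone marrow (13.3% passed, against 18.5% of all genes). Mmp12, the macrophage elastase, stood at 1194, 1060, 1164 and 499 in bone marrow and at 3373, 3359, 3484 and 2943 in spleen. Bone marrow replicate 4 was less than the other 3 of its group, and all 4 lay below the spleen arrays. Mmp12 was 3.55-fold lower (-1.83 ± 0.22 SE in log2 units, limma adjusted p = 5.6e-05), and -1.53 on the log2 scale without bone marrow replicate 4. The part of the macrophage markers, of which 10 of 12 were higher in bone marrow, was not tested. Mmp23, a protease with an unusual membrane-spanning precursor, stood at 84.7, 108, 90.2 and 75.4 against 132, 169, 158 and 147. It was 1.70-fold lower (-0.77 ± 0.11, adjusted p = 3.0e-04), with bone marrow levels around the olfactory receptor percentile. Mmp28 stood at 146 and 147 (95% interval of the log2 difference -0.19 to 0.16).

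Of the 18 Adamts genes 2 passed (11.1%, against 18.5% of all genes, a difference that was not tested), and 7 of the 18 lay at or below the olfactory receptor percentile. None of 7 proteoglycanases and neither of 2 procollagen proteinases passed, and of the remaining 9 genes 1 was higher and 1 lower. Adamts10, a protease associated with fibrillin microfibrils, stood at 528, 508, 546 and 557 in bone marrow and at 413, 467, 473 and 390 in spleen. The groups did not overlap, and the difference was 1.23-fold (0.30 ± 0.08 SE in log2 units, limma adjusted p = 0.025). That call ended with the mouse as a replicate block (adjusted p = 0.061), without bone marrow replicate 1 (0.051), 3 (0.066) or 4 (0.065), and without spleen replicate 1 (0.075) or 4 (0.069). Adamts13, the protease that cuts von Willebrand factor, stood at 91.4, 86.6, 103 and 104 against 124, 131, 120 and 122. The groups lay close but did not overlap, and the difference was 1.29-fold (-0.37 ± 0.08, adjusted p = 0.0064). Bone marrow levels of Adamts13 lay around the olfactory receptor percentile. Adamts17 stood at 483 and 496 (95% interval of the log2 difference -0.23 to 0.15), Adamts9 at 248 and 242 (-0.15 to 0.22) and Adamts3 at 176 and 183 (-0.29 to 0.18). These 3 genes had 5, 6 and 16 probe sets, and none of the probe sets passed. Adamts7 (163 and 153), Adamts14 (153 and 159) and Adamts8 (135 and 130) did not pass either.

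Promoter sequence was compared with these values because the rule did not use it. RefSeq windows of assembly GRCm38.p6 were found for 45 of the 74 genes, 50 windows in all, and the 250 bases before each start were searched on both strands for the GC box GGGCGG, the AP-1 motif TGANTCA and GAGGAAG, a core of the PU.1 motif. The motifs were chosen with the expression values known. All 5 rising genes with a window held a GC box, against 1 of the 6 falling genes (Adam8) and 11 of the 34 that did not pass. The motif is common, being present in 32.7% of all 32851 windows searched and in 49.4% of the 15563 measured genes that had one. Among measured genes it was held by 61.3% of those higher and 62.7% of those lower in bone marrow. With 5 and 6 genes, the count in these families is a description of which promoters hold these letters. The rising genes are shown by the 100 bases before their start, so that the place of the box can be seen, as Timp2 chr11:118355412-118355511 (minus strand), Mmp14 chr14:54431498-54431597 (plus strand), Adam15 chr3:89350029-89350128 (minus strand), Mmp25 chr17:23645270-23645369 (minus strand) and Adam17 chr12:21373633-21373732 (minus strand). Capitals mark GC boxes in either orientation, and in Mmp25 also the GAGGAAG run, 13 bases before the start. That run was present in 6 of the 50 windows (12%), against 10.6% of all windows: in 1 of the 5 rising genes, in 2 of the 6 falling genes (87 bases before a start of Mmp12 and 241 before that of Adam19) and in 3 of the 34 that did not pass. The box begins 37 bases before the start of Timp2, 19 and 13 before that of Mmp14, 16 before Adam15, 74 and 34 before Mmp25 and 75 before Adam17.
Timp2: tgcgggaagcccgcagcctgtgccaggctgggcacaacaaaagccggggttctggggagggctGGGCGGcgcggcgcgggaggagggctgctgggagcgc
Mmp14: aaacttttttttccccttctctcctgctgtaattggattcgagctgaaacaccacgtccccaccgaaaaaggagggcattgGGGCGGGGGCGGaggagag
Adam15: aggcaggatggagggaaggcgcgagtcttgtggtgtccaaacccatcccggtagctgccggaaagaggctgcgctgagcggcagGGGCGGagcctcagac
Mmp25: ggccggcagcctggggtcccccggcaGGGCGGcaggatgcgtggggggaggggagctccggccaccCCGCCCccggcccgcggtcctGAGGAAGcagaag
Adam17: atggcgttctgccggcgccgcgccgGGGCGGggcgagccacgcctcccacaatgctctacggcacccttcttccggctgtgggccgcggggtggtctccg

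The AP-1 motif was held mostly by genes of the MMP cluster on chromosome 9. By call, none of the 5 rising genes held it, against 2 of the 6 falling genes (Mmp12 and Adam19) and 10 of the 34 that did not pass. It was present in 12 of the 50 windows (24%), against 6.75% of all windows, and in 8 of the 16 Mmp genes with a window, 4 of the 16 Adam genes and none of the 9 Adamts or 4 Timp genes. All 8 of these Mmp genes lay on chromosome 9, where 9 of the Mmp genes have windows between bases 7272414 and 7692340. Of these 9 neighbours Mmp12 was the only one that passed the test. The other 8 had mean intensities from 12.9 to 83.1, all below the olfactory receptor percentile, with log2 fold changes from -0.19 to 0.20. Mmp13 stood at 60.9 (bone marrow) and 53.1 (spleen), Mmp3 at 74.5 and 73.1, and Mmp10 at 79.6 and 79.0, and none of these 3 passed. Mmp12 and these 3 neighbours are shown because they hold the same motif, while Mmp12 passed the test and the 3 others, dim in both tissues, did not, as Mmp12 chr9:7347274-7347373 (plus strand), Mmp13 chr9:7272414-7272513 (plus strand), Mmp3 chr9:7445722-7445821 (plus strand) and Mmp10 chr9:7502242-7502341 (plus strand), with the AP-1 motif in capitals. For Mmp12 this is the window of the later of 2 starts, and the earlier one did not hold the motif. The motif begins 44 bases before the start of Mmp12, 35 before that of Mmp13, 46 before Mmp3 and 63 before Mmp10.
Mmp12: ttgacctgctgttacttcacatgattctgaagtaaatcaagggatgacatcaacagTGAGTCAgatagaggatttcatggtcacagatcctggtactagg
Mmp13: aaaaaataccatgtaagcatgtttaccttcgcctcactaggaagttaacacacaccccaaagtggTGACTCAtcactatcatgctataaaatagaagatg
Mmp3: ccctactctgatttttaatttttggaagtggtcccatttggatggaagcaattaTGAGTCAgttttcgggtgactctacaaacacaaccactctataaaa
Mmp10: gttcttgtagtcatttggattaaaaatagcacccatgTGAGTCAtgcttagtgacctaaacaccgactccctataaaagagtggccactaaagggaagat

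Regulators of these proteases, the plasminogen system, shed membrane proteins and matrix substrates were described from 4 lists with 73 measured genes. Of the 73, 25 were higher and 9 lower in bone marrow. Over all genes, 18.5% passed. Of 18 genes of maturation, trafficking and inhibition, 7 were higher and 1 lower (44.4%), with a median log2 fold change of 0.23. Of the 18, 15 lay above the olfactory receptor percentile, where 26.9% of all genes passed, and the share was not tested. Lrp1, a scavenging receptor that takes up MMPs and TIMPs, stood at 4531 (bone marrow) and 1331 (spleen) (3.40-fold, 1.77 ± 0.10 SE in log2 units, limma adjusted p = 4.8e-08). Furin, which removes the propeptide of ADAMs and membrane-type MMPs, stood at 1174, 1313, 997 and 1204 against 689, 674, 600 and 487. The groups did not overlap, and the rise was 1.92-fold (0.94 ± 0.12, adjusted p = 8.0e-05). Rhbdf2 and Rhbdf1, the inactive rhomboids that bring ADAM17 to the surface, were 1.41-fold and 1.29-fold higher (adjusted p = 0.0014 and 0.0034). Among tetraspanins that guide an ADAM sheddase to the membrane, Tspan5 and Tspan17 were 1.81-fold and 1.76-fold higher, and Tspan33 was 1.32-fold lower (adjusted p = 0.0031). Tspan14 was 1.27-fold higher (adjusted p = 0.031), and Tspan10 and Tspan15 did not pass. Rhbdf1, Rhbdf2, Tspan5, Tspan10, Tspan14, Tspan15 and Tspan17 were chosen after their values were seen.

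Of 9 genes of the plasminogen system, which activates several MMPs, 4 were higher and 1 lower (55.6%, against 18.5% of all genes). Of the 9, 7 lay above the olfactory receptor percentile, where 26.9% of all genes passed, and the share was not tested. Plaur, the receptor that holds urokinase on the cell, stood at 1290, 1070, 1282 and 1027 in bone marrow and at 395, 282, 405 and 401 in spleen. It was 3.17-fold higher (1.66 ± 0.13 SE in log2 units, limma adjusted p = 8.3e-07). S100a10, a plasminogen receptor subunit, was 1.64-fold higher (adjusted p = 1.8e-04). Serpinb2, an inhibitor of urokinase, stood at 66.4, 75.2, 94.7 and 61.3 against 296, 395, 246 and 341, a 4.29-fold fall (-2.10 ± 0.15, adjusted p = 6.5e-07). All 4 bone marrow arrays lay below the olfactory receptor percentile, where the size of a difference is compressed. The receptor and this inhibitor went opposite ways. Plau, urokinase itself, stood at 200, 353, 193 and 205 in bone marrow and at 165, 178, 152 and 133 in spleen. It was 1.48-fold higher (limma adjusted p = 0.036), with bone marrow replicate 2 the highest of its group. The count of 4 higher was 2 without spleen replicate 1. It was 3 with median centring, with array weights, without bone marrow replicate 2 or 4 and without spleen replicate 2, 3 or 4. The count of 1 lower was 2 without bone marrow replicate 2.

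Of 27 membrane proteins known to be shed, 12 were higher and 6 lower (66.7%, against 18.5% of all genes). Most of the list is bright: 23 of the 27 lay above the olfactory receptor percentile, where 26.9% of all genes passed. The difference in share was not tested. Axl and Mertk, receptors of dying cells, were 12.8-fold and 5.83-fold higher (adjusted p = 4.3e-10 and 6.3e-05), and both also stand in the macrophage marker list. Of the 12 higher genes 4 (Axl, Mertk, Cd163 and Csf1r) stand in the macrophage or monocyte marker lists. Tnfrsf1b, a TNF receptor that ADAM17 sheds, stood at 3148 (bone marrow) and 1500 (spleen) (2.10-fold, adjusted p = 8.2e-07). Tnf itself stood at 227, 266, 220 and 279 against 343, 378, 430 and 342, so that it was 1.51-fold lower while Adam17 was higher (-0.59 ± 0.10 SE in log2 units, limma adjusted p = 0.0012). Il1r2, a decoy receptor of interleukin 1, and the Notch ligand Jag1 were 3.37-fold and 2.24-fold lower (adjusted p = 2.1e-05 and 5.2e-04). Tnf and Tnfrsf1b were chosen after their values were seen.

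Of 19 matrix substrates, 2 were higher and 1 lower, that is 15.8% against 18.5% of all genes. Fn1, fibronectin, stood at 2907, 3083, 2656 and 1833 in bone marrow and at 673, 267, 314 and 214 in spleen (2.95 ± 0.28 SE in log2 units, limma adjusted p = 6.9e-06). It was 7.75-fold higher, with bone marrow replicate 4 the lowest of its group. Bgn, the proteoglycan biglycan and also 1 of the stromal markers, was 1.36-fold higher (adjusted p = 0.045), a call that ended with array weights (0.052), without bone marrow replicate 1 (0.13) or 2 (0.12) and without spleen replicate 1 (0.066), 2 (0.066), 3 (0.13) or 4 (0.061). Nid1, a basement membrane linker, was 1.47-fold lower (adjusted p = 4.2e-04). The count of 2 was 1 with the dimmest genes left out, without bone marrow replicate 2 and without spleen replicate 1 or 3, and it was 4 without bone marrow replicate 4.

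**Figure D4:**
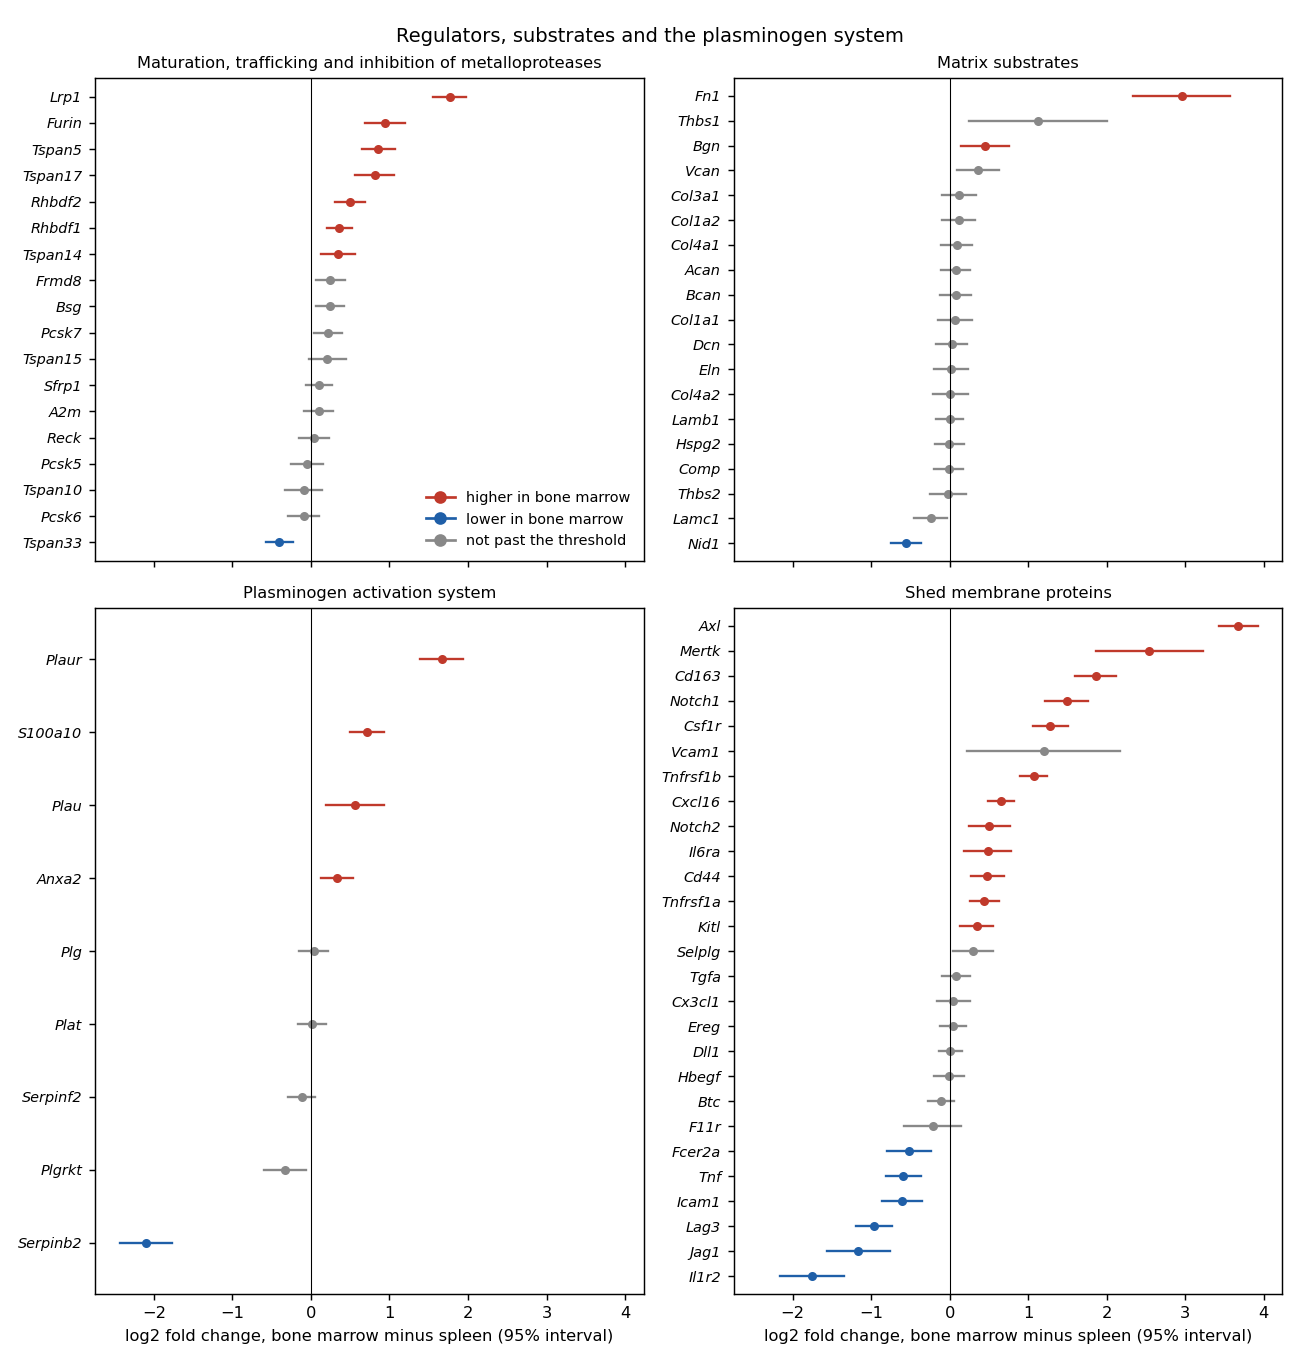
Log2 fold change (horizontal, bone marrow minus spleen) with its 95% interval for the measured genes of 4 lists, 1 panel per list: 18 regulators, 19 matrix substrates, 9 genes of the plasminogen system and 27 shed membrane proteins. Red marks the 25 genes higher and blue the 9 lower in bone marrow at an adjusted p of 0.05, and grey the genes that did not pass.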

How the data were processed

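The authors made 1 linear intensity per probe set and array in Expression Console 1.4 (Affymetrix; per the submitters' processing notes) from cDNA prepared from 100 pg to 2 ng of RNA, per the labels' protocols. How background and normalization were handled is not stated in the labels. Of 35556 probe sets, 21789 had exactly 1 gene symbol in the platform's annotation; the one with the highest mean was kept for each of 19938 genes. The 74 genes all matched RefSeq by Entrez ID with the same symbol.

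The log2 of the deposited intensities was fitted by limma 3.58.1 under R 4.3.3 (lmFit, eBayes, no block, no filter), as bone marrow minus spleen, with Benjamini-Hochberg adjustment over all genes and a threshold of 0.05. The fit was also run on simulated independent values with known changes added. That run cannot speak to pairing, to the cell makeup of the samples or to differences smaller than those added. Genes named were those past the threshold, all TIMPs, up to 2 of the highest mean in each role group that did not pass, and up to 2 per pathway list and direction. The genes and lists were chosen with earlier results of these data known. Adam32, Adam34l, Mmp3, Mmp10, Mmp13 and Mmp19 were named after their values were seen. So were Cd163, Csf1r, H2-Ab1, Cd74, Xcr1, Clec9a, Irf8, Irf4, Batf3 and Plau. Genes listed without a single-symbol probe set were not analysed here. Promoter windows of 1 chromosome were not used.

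Replicate numbers pair the tissues of 1 mouse, since their description labels carry a shared number. Deviations from the group means correlated across genes at 0.096, -0.088, -0.18 and -0.054 for replicates 1 to 4. The number of arrays limits the precision. Alternatives were quantile normalization, median centring, leaving out the dimmest 40% of genes, averaging probe sets, an intensity trend, array weights, the mouse as a replicate block, and leaving out each array.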

Additional observations from a re-analysis of the deposited data

Results flagged for a closer look

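In 100 groups of 4 values examined (most of the named genes, in each tissue), 6 held an array far from the other 3, where chance gives about 1 in 20. Mmp12 was at 499 in bone marrow replicate 4 and between 1060 and 1194 in the other 3. Adam28, dim in both tissues, was at 58.7 in spleen replicate 3, below 67.4 to 69.1. In spleen replicate 2, Plaur was at 282 (the others 395 to 405) and S100a10 at 1073 (1185 to 1198). In spleen replicate 3, Bgn was at 70.0 (87.6 to 89.0) and Tspan5 at 362, above 292 to 302.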

How the results depend on the processing

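Over 15 alternatives, the 14 family genes that passed kept their direction in all 210 values, and 204 stayed past the threshold; the other 6 were all Adamts10. The 13 others, Timp2 to Adam11, passed under every alternative run. The number of family genes higher in bone marrow was 6 or 7 and the number lower was 7 throughout, and the replicate block gave 6 and 7. Beside Adamts10, the replicate block ended no call among these genes. Mmp19 was called only without spleen replicate 4. The 17 named family genes that did not pass stayed below the threshold in all 251 values. Of 284 values for 19 of the named genes of the pathway lists, 7 lost the call, all of them Bgn, and none changed direction. Pathway genes higher ranged from 21 to 27 and lower from 9 to 10. By list, the count higher ranged from 6 to 9 for the regulators and from 2 to 4 for the plasminogen system. It ranged from 10 to 13 for the shed membrane proteins and from 1 to 4 for the matrix substrates. Leaving out the dimmest genes removed all but 28 of the 74. Signal over background limits the dim genes: a change in one of the 44 genes at or below the olfactory receptor percentile may go undetected.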
